A study of Mus with 5 samples.

Results

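The fatty acid and ketone metabolism genes described here are *Acsl1*, *Acsl3*, *Cpt1a*, *Cpt1b*, *Acadm*, *Acat1*, *Fabp3*, *Ppara* and *Ppargc1a*, 9 of the 12857 genes with values in E14.5 mouse hearts. The 9 were chosen from knowledge of the pathway and from earlier results of the same comparison of transgenic with WT hearts, in which some were known to differ. Their differences are therefore given as a description. Calls at a threshold come from a fit across all genes and are stated for each gene, but they are no independent test of the 9. All 9 identifiers were found, and all 9 passed the filter on low values, which removed 0 genes.

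RNA came from ventricles and valves, with the atria removed, of E14.5 embryos, and each library was made from a pool of 4 hearts. The transgenic group (3 pools) was heterozygous for *Nkx2.5* Cre and for the *Bmp2* transgene, given as Nkx2.5CRE;Bmp2 in the labels and with both alleles over + in the methods. In the transgene a CAG promoter at *Rosa26* drives a mouse *Bmp2* cDNA, an IRES and eGFP once Cre, expressed where *Nkx2.5* is active in the heart, has removed a floxed stop cassette. The line descends from 1 targeted embryonic stem cell clone. The WT group (2 pools) is given as WT only. In a cross that the study describes for this genotype, of *Bmp2* transgenic males with homozygous *Nkx2.5* Cre females, embryos without the transgene carry the Cre allele, but the sources used here do not say whether these WT pools came from it. If they lacked the allele, its effects and those of the transgene cannot be told apart. The authors excluded a further WT pool, which by their account clustered poorly with the others, and it was not analysed here. The spread between the WT pools, and the p-values that use it, therefore describe pools kept after that exclusion. Values are CPM, the reads of a gene relative to a scaled library size. Transgenic pools 1, 2 and 3 held 10564780, 9442233 and 7931484 reads over the 12857 genes, recovered from the values, and WT pools 1 and 2 held 9351893 and 7427905. As a check of the labels, *Bmp2* (ENSMUSG00000027358) measured 23.0, 27.1 and 23.3 CPM with the transgene and 14.1 and 10.2 CPM in WT, without separating transcripts of the inserted cDNA from those of the native locus.

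Long-chain fatty acids are bound in the cytoplasm, activated to acyl-CoA, passed into mitochondria as carnitine esters and shortened by beta-oxidation to acetyl-CoA. Ketone bodies enter the same acetyl-CoA pool through a thiolase. The fetal heart draws most of its energy from glucose and lactate, and turns to fatty acids around and after birth, under nuclear receptors of the PPAR family and their coactivators.

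In transgenic hearts the acyl-CoA synthetase genes *Acsl1* and *Acsl3* and the carnitine transferase gene *Cpt1a* were lower than in WT hearts, with differences in mean CPM of -22.3%, -20.2% and -18.4%. That of *Acat1*, the mitochondrial thiolase gene, was higher by 21.3%. These 4 genes had an adjusted p at or under 0.05 in a limma fit across all 12857 genes, as did 2.82% of all genes. Genes past this threshold are referred to as called. The standard errors given below come from the same fit, in which a gene's variance is drawn toward that of genes at similar levels. The muscle isozyme gene *Cpt1b*, the dehydrogenase gene *Acadm* and the coactivator gene *Ppargc1a* differed by less than 4% of the WT mean, and their groups overlapped. The receptor gene *Ppara* and the binding protein gene *Fabp3* lay between these groups.

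The same fit called 1.22% of all genes as higher and 1.59% as lower in transgenic hearts. The 4 called of the 9 were 1 higher and 3 lower. Because the 9 were chosen with this contrast known, nothing is read from that share. All genes split into 157 higher and 205 lower calls, and into 125 and 251 when the libraries were rescaled to the same total, while the 9 genes kept 1 higher and 3 lower call. Without a variance trend the split of all genes went the other way, to 10 higher and 0 lower calls. The transgenic pools lay entirely above or entirely below both WT pools for 6 of the 9 genes, 2 above and 4 below. That separation was seen for 35.7% of all genes, with 17.7% above and 18.0% below. The median size of the log2 differences, taken without sign, was 0.25 for the 9 genes and 0.10 for all genes, and the signed medians were -0.06 and 0.00. Limma called 0 of the 9 genes without WT pool 1 (5 had an unadjusted p under 0.05), without WT pool 2 (4) and without a variance trend (4), while edgeR and DESeq2 each called 4 on all pools. With 1 WT pool left out, the other is assumed to vary as the transgenic pools do.

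**Figure D1:**
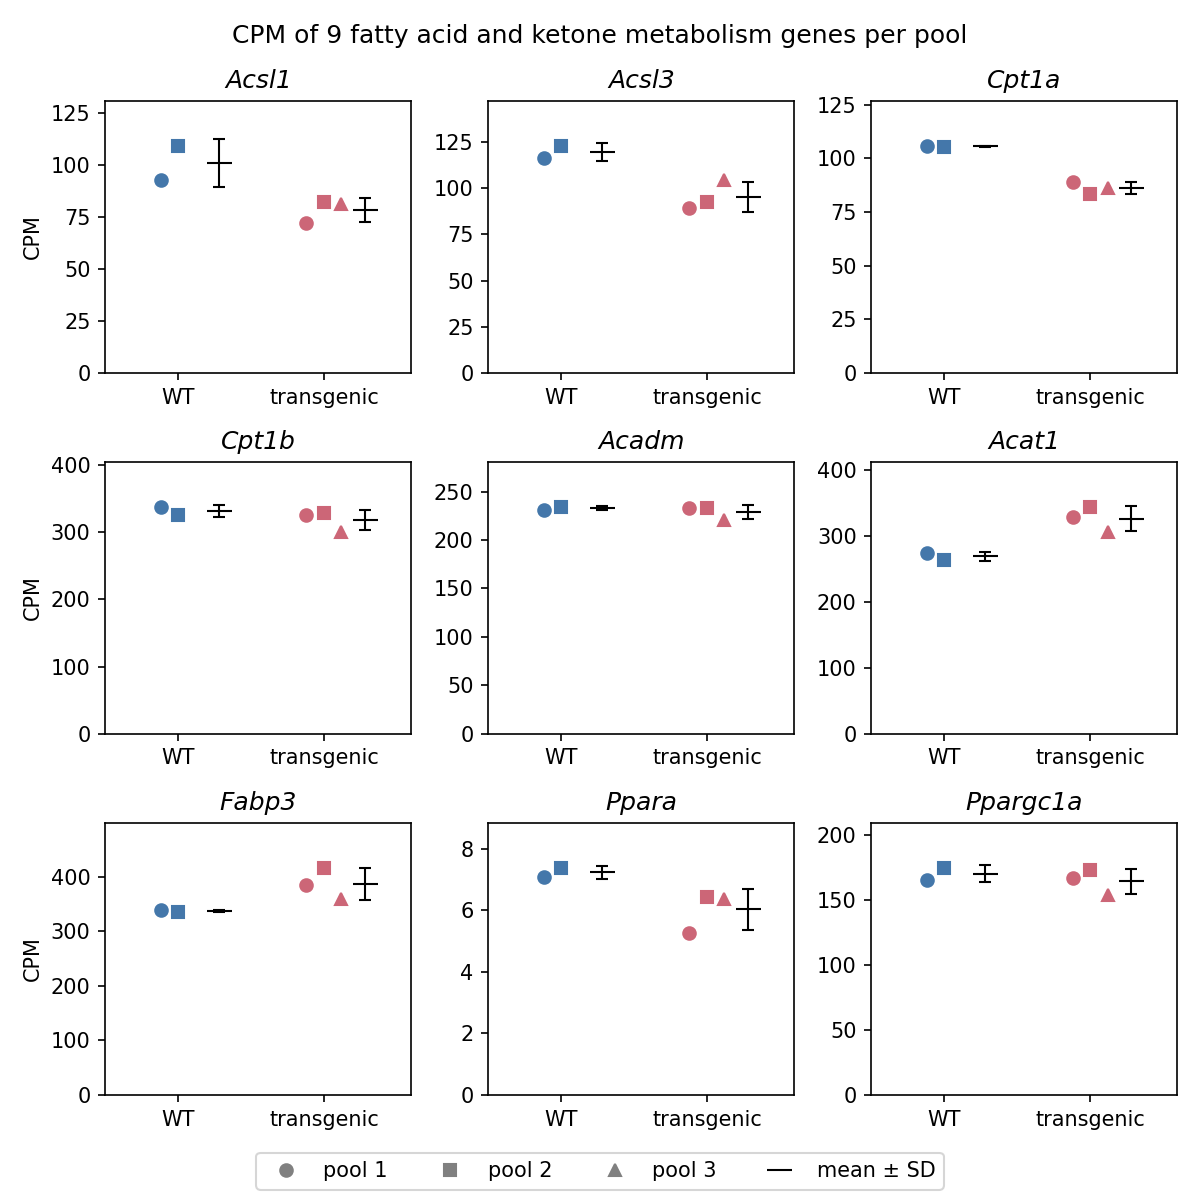
Each panel plots the CPM of 1 gene (vertical axis, from 0) in the 2 WT pools and the 3 transgenic pools, with the symbol marking the pool number and the black bar the mean ± SD. *Acsl1*, *Acsl3* and *Cpt1a* sit lower and *Acat1* higher in every transgenic pool, while *Cpt1b*, *Acadm* and *Ppargc1a* overlap.

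*Acsl1* (ENSMUSG00000018796, chromosome 8, 46471037 to 46536051 of GRCm38.p6) encodes a long-chain acyl-CoA synthetase that is prominent in heart and feeds oxidation. Its CPM was 71.8, 81.9 and 81.4 in transgenic pools 1, 2 and 3, against 92.6 and 109 in WT pools 1 and 2. Every transgenic pool was below both WT pools, and the nearest pools were 10.7 CPM apart. Group means came to 78.4 ± 5.69 CPM (SD, n = 3) for transgenic hearts and 100.9 ± 11.7 CPM (SD, n = 2) for WT, with a log2 difference of -0.36 (standard error 0.08). The WT pools differed from each other by more than the nearest transgenic and WT pools did. Accordingly the log2 difference was -0.24 without WT pool 2 and -0.48 without WT pool 1, and *Acsl1* was called in neither case, nor without transgenic pool 1 (-0.30).

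*Acsl3* (ENSMUSG00000032883, chromosome 1, 78657825 to 78707743) encodes a related synthetase of the endoplasmic reticulum and lipid droplets. Transgenic pools gave 89.4, 92.3 and 104.7 CPM, where WT pools gave 116 and 123. The groups did not overlap, and transgenic pool 3 came nearest to WT, 11.6 CPM below the lower WT pool. The WT mean was 119.6 ± 4.68 CPM (SD, n = 2) and the transgenic mean 95.5 ± 8.10 CPM (SD, n = 3), with a log2 difference of -0.33 (standard error 0.07). The call was lost without transgenic pool 1 (-0.28), transgenic pool 2 (-0.30) or either WT pool (-0.37 without pool 1 and -0.29 without pool 2).

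*Acsl3* shares its start at 78657825 with *Utp14b* (ENSMUSG00000079470, to 78667601 on the same chromosome) in the RefSeq annotation, and the sources used here do not say that strand was used in counting. *Utp14b*, a homologue of a ribosome biogenesis factor, measured 6.02, 5.58 and 7.38 CPM with the transgene and 10.8 and 9.38 CPM in WT. It was also lower in each transgenic pool, was not called (but was in 4 of the 16 other settings), and accounted for few reads beside *Acsl3*, 52 to 102 in a pool against 837 to 1100. How the reads of the shared start were divided was not tested. The annotation also has a long noncoding RNA overlapping each of *Acsl1* (*Gm31050*), *Acsl3* (*Gm51635*), *Cpt1a* (*Gm36532*) and *Cpt1b* (*Gm44502*). Whether reads of these RNAs were counted with those genes was not tested.

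Both synthetase genes were lower by similar proportions. The reads of *Acsl1* made up 44.5% of the reads of the pair in transgenic pool 1 (exact Clopper-Pearson 95% interval 42.2% to 47.0%), 47.0% in pool 2 (44.6% to 49.5%) and 43.8% in pool 3 (41.2% to 46.3%). WT pool 1 had 44.3% (42.1% to 46.6%) and WT pool 2 had 47.0% (44.7% to 49.4%), so the split overlapped between the groups. The sum of the pair was 173.9 ± 12.4 CPM (SD, n = 3) in transgenic hearts and 220.5 ± 16.3 CPM (SD, n = 2) in WT hearts. These shares are of reads, not of molecules, since the transcripts differ in length.

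*Cpt1a* (ENSMUSG00000024900, chromosome 19, 3322326 to 3385735) encodes the liver-type carnitine palmitoyltransferase of the outer mitochondrial membrane, which controls the entry of long-chain fatty acids and is well represented in the fetal heart. The transgenic values were 88.8, 83.4 and 86.3 CPM, and those of WT were 105.8 and 105.5 CPM. The groups were separated by 16.6 CPM, several times the SD of either group. Transgenic hearts averaged 86.2 ± 2.71 CPM (SD, n = 3), WT hearts 105.7 ± 0.241 CPM (SD, n = 2), with a log2 difference of -0.29 (standard error 0.06). The reads, 690 to 1001 in a pool, carry a counting error of 3.16% to 3.81%, and the WT pools differed by less than that, with a spread of 0.228%. With pools left out in turn the log2 difference ranged from -0.31 to -0.27, and the call was lost without WT pool 1 (-0.29) and without WT pool 2 (-0.30).

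*Cpt1b* (ENSMUSG00000078937, chromosome 15, 89416405 to 89425862) encodes the muscle-type isozyme, which predominates in the adult heart. Its CPM reached 325.4, 328.6 and 300.5 with the transgene, against 337.6 and 325.0 in WT. Transgenic pools 1 and 2 lay between the WT pools, and pool 3 lay below both. The WT mean was 331 ± 8.86 CPM (SD, n = 2) and the transgenic mean 318 ± 15.4 CPM (SD, n = 3), a difference of -13.1 CPM that was smaller in size than the SD of the transgenic pools, and the log2 difference was -0.06 (standard error 0.06). It was -0.02 without transgenic pool 3, -0.03 without WT pool 1 and -0.09 without WT pool 2. An uncalled difference of this size does not show that the levels were equal.

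The reads of both carnitine isozyme genes can be set against each other within a library. *Cpt1a* gave 21.4% of the reads of the pair in transgenic pool 1 (exact Clopper-Pearson 95% interval 20.2% to 22.7%), 20.2% in pool 2 (19.0% to 21.6%) and 22.3% in pool 3 (20.9% to 23.8%). It gave 23.9% in WT pool 1 (22.6% to 25.2%) and 24.5% in WT pool 2 (23.0% to 26.0%). Every transgenic share was below both WT shares, although the interval of transgenic pool 3 overlapped those of both WT pools and that of transgenic pool 1 overlapped WT pool 1. The intervals cover counting error only. The mean share was 21.3% ± 1.04 (SD, n = 3) against 24.2% ± 0.449 (SD, n = 2). No test of the difference between the isozymes was made, because *Cpt1a* was chosen with its change known.

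*Acadm* (ENSMUSG00000062908, chromosome 3, 153922353 to 153944643) encodes medium-chain acyl-CoA dehydrogenase, an enzyme of the oxidation cycle itself. Transgenic hearts had 232.6, 233.3 and 220.7 CPM, and WT hearts 231.3 and 234.2 CPM. The values of transgenic pools 1 and 2 fell between those of the WT pools. Transgenic hearts averaged 229 ± 7.06 CPM (SD, n = 3), WT hearts 232.7 ± 2.01 CPM (SD, n = 2), with a log2 difference of -0.02 (standard error 0.05), the smallest of the 9 genes. Its sign turned, to 0.0013, without transgenic pool 3, and it was -0.04 without transgenic pool 2 and -0.02 without WT pool 2.

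*Acat1* (ENSMUSG00000032047, chromosome 9, 53580522 to 53610350) encodes the mitochondrial acetoacetyl-CoA thiolase, which splits acetoacetyl-CoA in the use of ketone bodies and also acts in isoleucine breakdown. The transgenic pools were at 329.5, 344.3 and 306.1 CPM, where WT stood at 274.1 and 264.5 CPM. All transgenic pools were above both WT pools, with 32.0 CPM between the nearest pools. The WT mean was 269.3 ± 6.85 CPM (SD, n = 2) and the transgenic mean 326.6 ± 19.2 CPM (SD, n = 3), with a log2 difference of 0.28 (standard error 0.06). With 1973 to 3445 reads in a pool, its counting error was at most 2.25%, below the spread of 5.89% between transgenic pools. *Acat1* was the only one of the 4 called genes that was higher in transgenic hearts. Over the pools left out in turn the log2 difference ranged from 0.24 to 0.32, and it was not called without WT pool 1 (0.30) or WT pool 2 (0.25).

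*Fabp3* (ENSMUSG00000028773, chromosome 4, 130308738 to 130315463) encodes the heart-type fatty acid binding protein, the carrier of fatty acids in the cytoplasm of cardiomyocytes. With the transgene it had 384.8, 415.8 and 358.2 CPM, against 338.0 and 335.9 CPM without. Each transgenic pool exceeded both WT pools, by at least 20.2 CPM, but the transgenic pools spread widely, at 386 ± 28.9 CPM (SD, n = 3) against 337 ± 1.48 CPM (SD, n = 2). The log2 difference was 0.19 (standard error 0.06), and *Fabp3* was not called. It was called in 2 of the 16 other settings, with a log2 difference of 0.25 in each. These were without transgenic pool 3, the lowest of the 3, and with a block for pool number. No WT pool 3 was analysed, so the block took transgenic pool 3 out of the difference. Both settings therefore gave the same estimate. The labels tie no shared source to equal pool numbers. The lowest log2 difference of *Fabp3* was 0.14, without transgenic pool 2. The RefSeq annotation has a pseudogene, *Fabp3-ps1*, and the protein-coding gene *Zcchc17* overlaps *Fabp3*, so part of its reads could have been assigned elsewhere; neither was analysed here.

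*Ppara* (ENSMUSG00000022383, chromosome 15, 85734910 to 85806851) encodes PPAR alpha, the nuclear receptor that switches on genes of fatty acid oxidation, *Cpt1b*, *Acadm* and *Acsl1* among its known targets. Its CPM was 5.26, 6.44 and 6.38 in transgenic hearts, against 7.08 and 7.37 in WT. The transgenic pools were all lower, but the nearest pools were only 0.642 CPM apart. These values rest on 55, 60 and 51 transgenic reads and 67 and 55 WT reads, so that counting alone gives an error of 12.2% to 14.0% per pool. Transgenic hearts averaged 6.03 ± 0.665 CPM (SD, n = 3), WT hearts 7.23 ± 0.204 CPM (SD, n = 2), a difference of -16.6% and a log2 difference of -0.25 (standard error 0.17). The log2 difference was -0.16 without transgenic pool 1. *Ppara* was not called in the other settings that tested it, and DESeq2 gave it no adjusted p.

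*Ppargc1a* (ENSMUSG00000029167, chromosome 5, 51454249 to 52115853) encodes PGC-1 alpha, a coactivator of PPAR alpha and of the estrogen-related receptors that raises mitochondrial and oxidative genes. Transgenic hearts showed 166.8, 173.0 and 153.8 CPM, and WT hearts 165.7 and 174.8 CPM. Transgenic pools 1 and 2 lay between the WT pools and pool 3 below both. Transgenic hearts averaged 164.5 ± 9.77 CPM (SD, n = 3), WT hearts 170.2 ± 6.45 CPM (SD, n = 2), with a log2 difference of -0.05 (standard error 0.06). This value rested on single pools, at -0.0027 without transgenic pool 3, -0.01 without WT pool 2, -0.09 without WT pool 1 and -0.09 without transgenic pool 2. It was called in 0 of the 16 other settings.

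**Figure D2:**
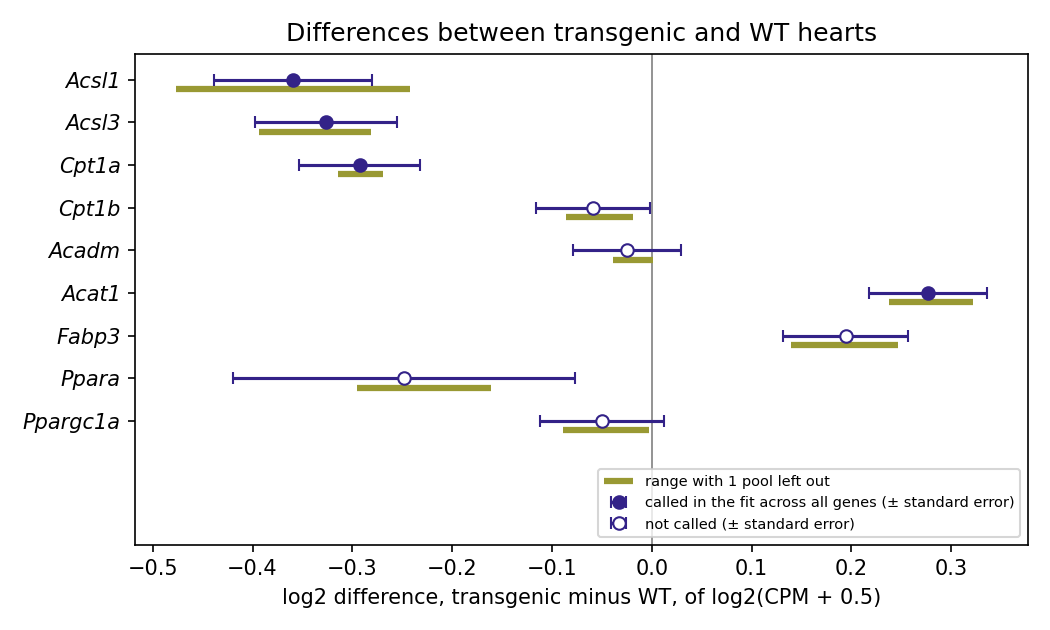
Points give the log2 difference of each gene (transgenic minus WT, horizontal axis, of log2(CPM + 0.5)) with bars of 1 standard error, filled where the gene was called, and the thick lines below them give the range with each pool left out in turn. *Acsl1*, at -0.36, has the widest left-out range of the 4 called genes, from -0.48 to -0.24, and *Cpt1a* the narrowest.

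In bulk RNA, fewer cells of a type and less RNA per cell cannot be told apart, and names were available for only some of the genes that could place these values. Of 79 further genes of fatty acid, ketone and mitochondrial metabolism listed for this report, 9 could be paired with an identifier. All 9 pairings came from the study's list of changed genes, which was drawn up on these same libraries, so their directions are no independent evidence. Of these 9, 4 were called higher, 1 was called lower and 4 were not called. Among all genes 1.22% were called higher and 1.59% lower. Because of how the 9 were paired, nothing is read from their count. None of the other synthetases, carnitine shuttle genes, enzymes of beta-oxidation or of ketone body metabolism, malonyl-CoA genes or regulators on the list could be paired, and they were not analysed here.

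Among genes of uptake and binding, *Cd36*, which encodes a fatty acid transporter of the plasma membrane, had 169.7, 179.5 and 180.3 CPM with the transgene, against 209.9 and 229.3 in WT. It was the called gene of this group that was lower, with a log2 difference of -0.31 (standard error 0.06), near the values of *Acsl1*, *Acsl3* and *Cpt1a*, and its call was lost without a variance trend and without either WT pool (-0.38 to -0.25 over the pools left out). *Lpl*, encoding the lipase that frees fatty acids from lipoproteins, had 268.3, 294.6 and 280.1 CPM, against 322.8 and 328.9 in WT, was not called, and had a log2 difference of -0.21 (standard error 0.06). It was called lower in 7 of the 16 other settings, quantile and equal-total scaling, DESeq2 and edgeR's exact test among them. *Dbi*, which encodes an acyl-CoA binding protein, was called higher, at 105.4, 113 and 98.3 CPM against 87.0 and 88.5, with a log2 difference of 0.26 (standard error 0.07). *Fabp5*, an epidermal-type binding protein gene, was at 197, 188 and 211 CPM against 166 and 175 CPM and was not called (0.22, standard error 0.06), except in 2 of the 16 other settings. Of the 4 uptake and binding genes paired, of 11 listed, 1 was thus called higher, 1 was called lower and 2 were not called. The shares of all genes were 1.22% called higher and 1.59% called lower, and nothing is read from these counts. The call of *Dbi* was lost with quantile or equal-total scaling, with DESeq2, without a variance trend and without transgenic pool 1 or 2 or either WT pool (0.21 to 0.31 over the pools left out). *Lpl* and *Fabp5* are named after their values were seen.

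*Cidea*, a lipid droplet gene, was the one gene of storage and release that could be paired. It had 7.27, 7.62 and 5.63 CPM with the transgene, against 4.12 and 2.81 in WT, and was called higher with a log2 difference of 0.90 (standard error 0.21). Its few reads give it a counting error of up to 21.8% per pool, and the call was lost without a variance trend, without transgenic pool 1 or 2 and without either WT pool, and DESeq2 gave no adjusted p, with log2 differences of 0.66 to 1.14 over the pools left out.

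Of the 10 genes listed for mitochondrial content, 4 could be paired, again only through the study's list of changed genes. All 4 were higher in every transgenic pool, as were 17.7% of all genes, and nothing is read from that count. *Got2*, the mitochondrial aspartate aminotransferase gene, was at 441, 489.8 and 428 CPM against 370.2 and 390.3 CPM, and was called with a log2 difference of 0.25 (standard error 0.06). *Ndufa5*, a subunit gene of respiratory complex I, was at 93.1, 105.9 and 88.2 CPM against 75.2 and 79.1 CPM and was called (0.31, standard error 0.08). Both calls were lost without a variance trend, without transgenic pool 1 or 2 and without either WT pool (0.19 to 0.29 for *Got2* and 0.23 to 0.36 for *Ndufa5*), and that of *Ndufa5* also with quantile scaling or DESeq2. *Cox7c* and *Uqcrb*, subunit genes of cytochrome oxidase and of complex III named after their values were seen, were not called, with log2 differences of 0.29 and 0.24, but were called in 5 and 2 of the 16 other settings. Over the pools left out the log2 differences ranged from 0.20 to 0.38 for *Cox7c* and from 0.16 to 0.30 for *Uqcrb*.

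Markers of the cell types in these hearts could be checked only in part. Of 6 cardiomyocyte markers only *Ryr2*, the cardiac ryanodine receptor gene, had a name, so the tissue itself was not checked. *Ryr2* had 480.3, 425 and 459 CPM with the transgene, against 548 and 556 in WT. It was called lower, with a log2 difference of -0.28 (standard error 0.06), near that of *Cpt1a*, and its call too was lost without either WT pool or a variance trend (-0.32 to -0.23 over the pools left out). The 3 of 5 endothelial and endocardial markers with a name, *Cdh5*, *Kdr* and *Tie1*, summed to 506, 426 and 499 CPM with the transgene, against 603 and 590.2 in WT, *Cdh5* being the most abundant. The 2 of 5 cushion mesenchyme and fibroblast markers, *Dcn* and *Pdgfra*, summed to 264, 256 and 282 CPM and to 311 and 332 CPM, with *Dcn* the more abundant. In both of these lists the WT pools were above all transgenic pools. The 3 of 5 smooth muscle and pericyte markers, *Pdgfrb*, the most abundant, *Rgs5* and *Myh11*, summed to 138, 138 and 157 CPM and to 188 and 185 CPM. The epicardial marker *Tbx18*, 1 of 3, was higher, at 87.3, 88.1 and 86.2 CPM against 65.3 and 69.7 CPM. *Ryr2*, *Kdr*, *Tie1*, *Pdgfra*, *Rgs5* and *Myh11* were called lower and *Tbx18* higher, while *Cdh5*, *Dcn* and *Pdgfrb*, the most abundant of their lists, were not called (-0.25, -0.22 and -0.24), though they were in 6, 2 and 6 of the 16 other settings. The part of these markers in the differences of *Acsl1*, *Acsl3*, *Cpt1a* and *Acat1* was not tested. These markers too were paired through the study's list of changed genes, so markers outside that list could not appear. Of the 10, 7 were called, against 2.82% of all genes, and nothing is read from that count. Each of the 7 calls was lost without a variance trend and without either WT pool. The call of *Tie1* was also lost with quantile scaling and without transgenic pool 2 (-0.36 to -0.23 over the pools left out), and that of *Myh11* with DESeq2 and without transgenic pool 2 (-0.78 to -0.59). Of the 8 red cell and liver markers, 0 could be paired.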

How the data were processed

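RNA-seq libraries of 3 transgenic and 2 WT pools were compared. Per the labels and the methods, the authors removed adaptors with cutadapt, aligned with Bowtie to GRCm38, estimated expression by RSEM for Ensembl genes, left out low genes and 1 WT pool, and tested with edgeR. They deposited CPM relative to a scaled library size. Within a library, 100% of values came out whole (tolerance 0.05 reads) when divided by the worth of 1 read. In transgenic pool 1 and WT pool 2 no gene has a value of 1 read, so that worth was taken from the smallest gap between low values. Pools held separate embryos, so the p-values draw on the spread between pools. Limma also draws each gene's variance toward a trend across all genes. Its standard errors and p-values therefore do not measure a gene's own spread alone.

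The test was limma 3.58.1 in R 4.3.3 on log2(CPM + 0.5), with a variance trend and no covariate, Benjamini-Hochberg adjusted over 12857 genes (threshold 0.05; filter of CPM of at least 1 in at least 2 libraries). This scale understates changes of low genes. Alternatives were other pseudocounts and filters, no trend, quantile or equal-total scaling, edgeR 4.0.16 and DESeq2 1.42.0 on the reads, a block for pool number, and leaving out single pools. Since the filter removed 0 genes, the setting without it repeats the main fit. The block gives the log2 differences found without transgenic pool 3. The 16 other settings are therefore not 16 separate checks. The scripts were tested on simulated data. Python 3.11.15, pandas 2.3.3, scipy 1.17.1 and matplotlib 3.10.9 made tables and figures.

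The 9 genes and the lists were chosen with earlier results of these data known. All 9 genes are named, as are *Bmp2* and, of each list, the called genes or else the most abundant one. Outside this rule, *Utp14b*, *Lpl*, *Fabp5*, *Cox7c*, *Uqcrb*, *Cdh5*, *Dcn* and *Pdgfrb* were named after their values were seen. Names of 4 of the 9 come from the study's list of 406 changed genes, and those of the other 5 came with the identifiers in the list of the 9. Positions are those of the symbols in RefSeq's GRCm38.p6 table, which pairs 0 genes with Ensembl identifiers. The authors' fold changes and p-values in that list were not used.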

Additional observations from a re-analysis of the deposited data

How the results depend on the processing

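Limma called 362 of all genes, 4 of the 9 genes and 5 of the 9 other pathway genes with a name. Without the variance trend these counts were 10, 0 and 0, while 1846 genes, 4 of the 9 and 8 of the 9 others had an unadjusted p under 0.05. DESeq2 called 229 genes, with 4 of the 9 genes and 3 of the 9 others. edgeR's exact test called 482, 4 and 8, and its quasi-likelihood test 398, 4 and 6. With each pool left out, the counts ranged from 43 to 464 genes, from 0 to 5 of the 9 and from 0 to 7 of the 9 others. The counts of 0 came from leaving out a WT pool, where 5 (without pool 1) and 4 (without pool 2) of the 9 genes, and 7 and 9 of the others, had an unadjusted p under 0.05; limma there assumes that the lone WT pool varies like the others. Without transgenic pool 1 the counts were 313, 2 and 1, and without transgenic pool 2 they were 226, 3 and 3. The replicate block gave 655, 5 and 8, the fifth gene being *Fabp3*; the labels tie no shared source to equal pool numbers, and same-numbered pools deviated from their group means with correlations across genes of -0.03 and -0.05. Because no WT pool 3 was analysed, the log2 differences under the block are those without transgenic pool 3. The cause of the shifts in the counts was not tested. Of the 9 log2 differences, that of *Acadm* changed sign without transgenic pool 3, and so did the same estimate under the block. Those of *Cpt1b* and *Ppargc1a* came to -0.02 and -0.0027 without transgenic pool 3. *Ppara* rests on 51 to 67 reads in a pool, a counting error of 12.2% to 14.0%, and DESeq2 gave no adjusted p for *Ppara* or *Cidea*.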

Other observations

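Among the transgenic pools, 5 of the 9 genes (*Cpt1b*, *Acadm*, *Acat1*, *Fabp3* and *Ppargc1a*) were highest in pool 2 and lowest in pool 3, as were 18.5% of all genes. The same was seen for 6 of the 9 other pathway genes with a name, *Dbi*, *Cidea*, *Cox7c*, *Uqcrb*, *Ndufa5* and *Got2*. Of the 10 cell type markers with a name, 7 were instead lowest in pool 2, against 34.2% of all genes. *Acsl1*, *Acsl3* and *Ppara* were lowest in pool 1, and *Cpt1a* was lowest in pool 2. The pattern was noticed after the values were seen, its genes share libraries, and its source was not tested.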
